A study of Mus musculus with 12 samples.

Results

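Bone morphogenetic proteins (BMPs) are secreted ligands that bind paired type I and type II serine/threonine kinase receptors, and the activated receptors phosphorylate Smad transcription factors. Among the best known Smad targets are the Id genes, whose small proteins bind basic helix-loop-helix transcription factors and keep them off DNA. In the oligodendrocyte lineage, BMP signalling and Id2 and Id4 are known for holding precursors back from differentiation and for favouring astrocytes. Smad7 and noggin (Nog) are inhibitors of the pathway.

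The genes described here are the ligands Bmp4 and Bmp7, the receptors Bmpr1a and Bmpr2, the targets Id1, Id2, Id3 and Id4, and the inhibitors Smad7 and Nog. These 10 genes were chosen by symbol from a deposited table of 33864 loci. Each was found at 1 locus, and all 10 reached 1 FPKM (a fragment count divided by transcript length and by library depth) in at least 3 of 12 libraries, as did 13803 loci in all. Nog passed that filter through its values in a single mouse line.

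RNA of subcortical white matter was sequenced from 12 mice, 1 library per mouse, in 4 groups of 3. In the first line, mutants with the genotype Sox10-tTA;TRE-dnEGFR had TRE-dnEGFR littermates as controls; all of them were given doxycycline between postnatal days 21 and 35 and were sampled on day 35. In the second line, Sox10-tTA;TRE-ErbB2V664E mutants had TRE-ErbB2V664E littermates as controls, with doxycycline between days 21 and 30 and sampling on day 30. The transactivator tTA is driven by Sox10, a gene of the oligodendrocyte lineage; dnEGFR is a dominant-negative epidermal growth factor receptor, and ErbB2V664E is an activated ErbB2. By its title, the study asked about expression in white matter whose oligodendroglia had ErbB receptors activated or inhibited. No group carried the transactivator alone, and no label states the direction in which doxycycline acted on the transgenes. The tissue was not sorted, so fewer cells of a type and less RNA per cell cannot be told apart.

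The libraries held an estimated 16596881 to 24739626 fragments, read from the steps of the lowest values, and summed to between 117363 and 134410 FPKM. All 10 mature oligodendrocyte markers were tested, and their summed level was 752 to 1780 FPKM over the 12 libraries. Log2 values of mice of the same group correlated at 0.910 to 0.926. Markers of neurons (445 to 773 FPKM), astrocytes (228 to 449) and microglia (57.7 to 139) were also present.

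None of the 10 genes passed the threshold in either line, while 3 of them separated mutants from controls without overlap. That was 1 of 9 genes for dnEGFR and 2 of 10 for ErbB2V664E, close to the shares of all loci, 10.1% and 18.2%. Bmp4 and Smad7 were lower in all 3 ErbB2V664E mutants than in any of their controls, and Id3 was higher in all 3 dnEGFR mutants than in any of theirs. Id1 and Bmp7 overlapped between mutants and controls in both lines. Id2, Bmpr1a, Id3, Id4 and Nog held libraries more than 3-fold apart within a single group.

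In the dnEGFR comparison 0 of the 9 genes with a value above 0 were called by limma (adjusted p under 0.05), and 0 had an unadjusted p under 0.05. Over all 13803 loci, 0.0942% were called in that comparison (13 loci, and 3 with litter as a block), and 5.69% had an unadjusted p under 0.05. Groups did not overlap for 1 of the 9 genes (Id3, higher in mutants), against 10.1% of all loci (5.58% with mutants higher). The median log2 change of the 9 genes was 0.00, where that of all loci was 0.01.

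In the ErbB2V664E comparison 0 of 10 genes were called by limma, and 2 (Bmp4 and Smad7) had an unadjusted p under 0.05. Over all loci 0.275% were called, which was 38 loci (19 higher and 19 lower), with 18 higher and 11 lower after upper-quartile scaling and 7 in all with litter as a block. An unadjusted p under 0.05 was found at 12.1% of loci, and 18.2% did not overlap (8.96% with mutants lower), against 2 of the 10 genes, both lower. Of these genes 3 had positive and 7 negative log2 changes, with a median of -0.16 where all loci had 0.00. These counts and the median include Nog, of which no test is read for the reason given below. For the difference of the effects, ErbB2V664E minus dnEGFR, 0 of 9 genes were called by limma, against 0.116% of all loci (16, and 4 with litter as a block). An unadjusted p under 0.05 was found for 2 of the 9 (Id2 and Smad7), against 9.01% of all loci.

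**Figure D1:**
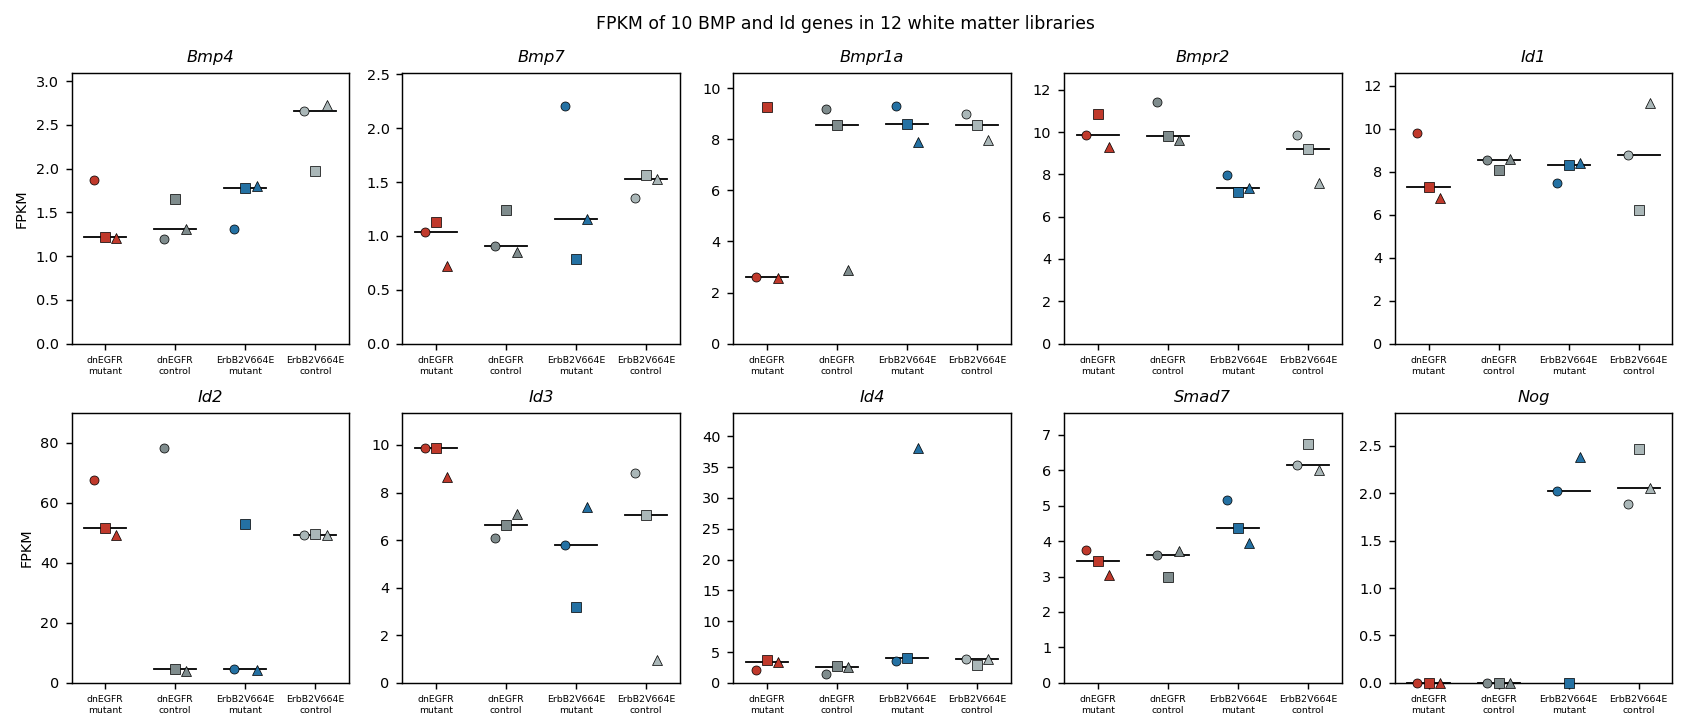
FPKM (y axis, from 0) of the 10 genes in each library, with mutants left of the controls of their line along the x axis; symbols mark mouse 1 (circle), 2 (square) and 3 (triangle) of a group, and bars are group medians. Bmp4 and Smad7 lie lower in the ErbB2V664E mutants than in their controls, Id3 lies higher in the dnEGFR mutants, and Id2 and Bmpr1a fall on separate levels within groups.

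Bmp4, a ligand that in mouse brain is also a marker of newly formed oligodendrocytes, was lower in ErbB2V664E mutants. It was at 1.31, 1.78 and 1.80 FPKM in these mutants, against 2.66, 1.98 and 2.73 FPKM in their controls. The groups did not overlap, so the mutant was necessarily the lower mouse in 3 of 3 litter pairs. The log2(FPKM + 1) change was -0.39 (SE 0.14, 95% interval -0.71 to -0.07), with an adjusted p of 0.305 by limma (unadjusted 0.0216). Because 1 is added before the logarithm, low values change by less on this scale than in FPKM.

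Beside Bmp4, all 8 other tested markers of newly formed oligodendrocytes had negative log2 changes in ErbB2V664E mutants, with a median of -0.45 and 1 of them called. The summed level of the 9 listed markers other than Bmp4, tested or not, was 42.6 to 57.2 FPKM in these mutants and 72.3 to 95 FPKM in the controls. All 8 oligodendrocyte precursor markers were negative as well (median -0.19, 0 called). Their part in the Bmp4 values was not tested.

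In the dnEGFR line Bmp4 was at 1.87, 1.22 and 1.21 FPKM in mutants, against 1.20, 1.66 and 1.31 FPKM in controls. The groups overlapped, and the log2 change was 0.02 (95% interval -0.30 to 0.34, adjusted p = 1 by limma). By group mean the order was 2.46 ± 0.418 FPKM in ErbB2V664E controls, 1.63 ± 0.281 in ErbB2V664E mutants, 1.43 ± 0.381 in dnEGFR mutants and 1.39 ± 0.239 in dnEGFR controls (SD, n = 3 each). The ranges of mean ± SD of the last 3 groups overlapped. Groups of different lines also differed in age and length of treatment and were not tested against each other. The difference between the effects in the ErbB2V664E and dnEGFR lines was -0.41 (95% interval -0.87 to 0.04, adjusted p = 0.577 by limma).

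Bmp7, a ligand also made by choroid plexus and meninges, was lower in FPKM than Bmp4 in its median and did not separate the groups. It was at 1.04, 1.13 and 0.72 FPKM in dnEGFR mutants, against 0.903, 1.24 and 0.85 FPKM in their controls. Among ErbB2V664E mice it was at 2.21, 0.786 and 1.16 FPKM in mutants, against 1.35, 1.56 and 1.53 FPKM in controls. The mutants thus spread around their controls in the second line. Log2 changes were -0.03 (95% interval -0.46 to 0.40) for dnEGFR and -0.10 (-0.53 to 0.33) for ErbB2V664E, with adjusted p of 1 and 0.884 by limma. Choroid plexus markers, of which Kcne2 was listed at 0 in some libraries, ranged widely within groups. Their summed level was 174 to 785 FPKM in dnEGFR mutants, 73.5 to 839 in dnEGFR controls, 34.0 to 789 in ErbB2V664E mutants and 344 to 736 in ErbB2V664E controls, and their part in the Bmp7 values was not tested.

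Bmpr2, the type II receptor that phosphorylates the type I receptor, was among the steadiest of the 10 genes. It was at 9.87, 10.8 and 9.31 FPKM in dnEGFR mutants, against 11.4, 9.81 and 9.64 FPKM in their controls (log2 change -0.04, 95% interval -0.28 to 0.21). ErbB2V664E mice had 7.97, 7.16 and 7.34 FPKM in mutants, against 9.87, 9.19 and 7.57 FPKM in controls. Each of these mutants was below the control of the same number, although the highest mutant exceeded the lowest control. The log2 change was -0.21 (95% interval -0.46 to 0.03, adjusted p = 0.476 by limma).

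Bmpr1a, the type I receptor, fell on separate levels inside the dnEGFR line. It was at 2.61, 9.25 and 2.57 FPKM in dnEGFR mutants, against 9.17, 8.56 and 2.88 FPKM in dnEGFR controls. Low values thus occurred in 2 mutants and 1 control, and no library lay between 2.88 and 7.90 FPKM. In the ErbB2V664E line Bmpr1a was even, at 7.90 to 9.29 FPKM in mutants and 7.96 to 8.98 FPKM in controls. Log2 changes were -0.50 (95% interval -1.47 to 0.46) for dnEGFR and 0.01 (-0.95 to 0.98) for ErbB2V664E, with adjusted p of 0.987 and 0.999 by limma. The dnEGFR change rested on single libraries: it was -1.01 without mutant 2 and -0.95 without control 3, but -0.25 without mutant 1 or mutant 3, -0.26 without control 1 and -0.30 without control 2.

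**Figure D2:**
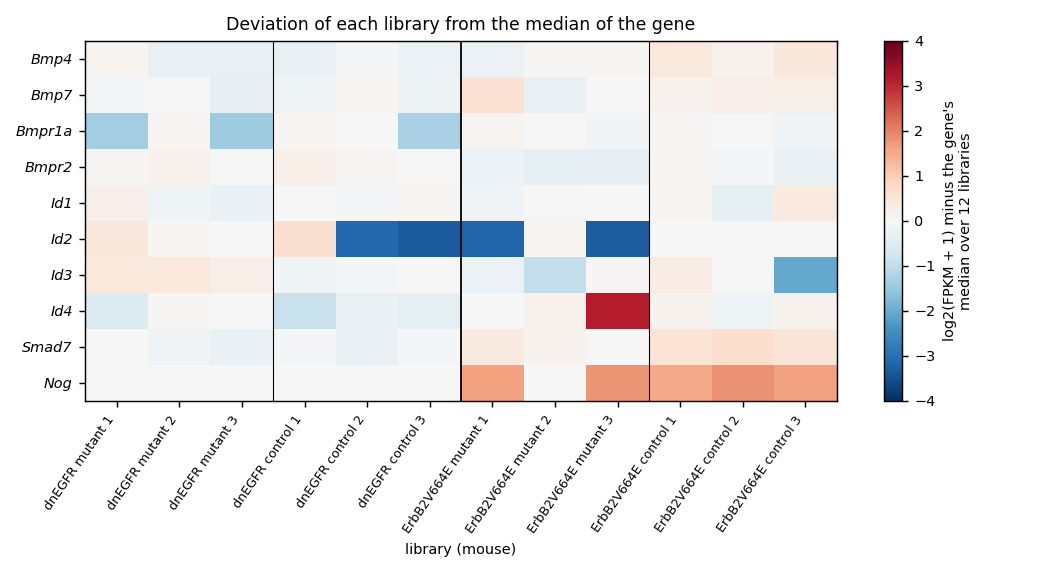
Deviation of log2(FPKM + 1) in each library (x axis) from the median of the gene over 12 libraries (colour, log2 units), for each of the 10 genes (y axis). Colours stand out in several libraries for Id2 and Bmpr1a and in a single library each for Id3 and Id4, while Bmp4, Bmp7, Bmpr2, Id1 and Smad7 stay pale. The median of Nog is 0, so every library with a nonzero value stands out for it.

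The 4 Id genes encode separate small proteins on mouse chromosomes 2 (Id1), 12 (Id2), 4 (Id3) and 13 (Id4). They resemble each other in the helix-loop-helix domain, which pairs with the partner protein. The window of 120 coding bases shown for Id1 is the one that best matched the other Id genes together. Each other window is the best match to that of Id1. They are shown to let the likeness of the 4 genes be judged beside values that differed strongly between libraries. Capitals mark the 69 bases that are the same in all 4 genes, in the GENCODE M21 transcripts of build GRCm38, read 5′ to 3′ along the coding strand.
Id1: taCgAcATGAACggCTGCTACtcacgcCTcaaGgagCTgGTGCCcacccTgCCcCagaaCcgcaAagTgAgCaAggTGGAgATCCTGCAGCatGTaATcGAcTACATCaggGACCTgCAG
Id2: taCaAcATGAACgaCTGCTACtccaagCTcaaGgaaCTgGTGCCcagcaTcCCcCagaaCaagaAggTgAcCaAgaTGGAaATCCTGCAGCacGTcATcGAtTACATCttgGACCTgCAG
Id3: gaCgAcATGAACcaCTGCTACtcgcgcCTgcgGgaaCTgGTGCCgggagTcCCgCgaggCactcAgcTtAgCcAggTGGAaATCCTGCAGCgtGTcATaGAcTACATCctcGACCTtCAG
Id4: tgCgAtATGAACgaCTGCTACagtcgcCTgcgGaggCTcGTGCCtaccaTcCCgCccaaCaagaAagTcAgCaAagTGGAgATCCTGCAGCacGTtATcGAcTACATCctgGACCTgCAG

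The windows start at coding base 178 in Id1, 109 in Id2, 124 in Id3 and 196 in Id4. In these windows, chosen by their match to Id1, the closest were Id1 and Id2, with 98 of 120 bases identical (81.7%). Id3 matched Id1 and Id4 at 85 bases each (70.8%). The longest run that any 2 of the 4 genes shared anywhere in their transcripts was 19 bases (Id2 and Id3). It follows that none of the 4 shared a stretch of 100 bases with another Id gene. The part of this likeness in the values was not tested.

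Id1 was the steadiest of the 4 across groups. It was at 9.80, 7.27 and 6.76 FPKM in dnEGFR mutants, against 8.54, 8.09 and 8.58 FPKM in their controls. Among ErbB2V664E mice it was at 7.49, 8.30 and 8.42 FPKM in mutants, against 8.79, 6.24 and 11.2 FPKM in controls. The lowest and the highest library of the second line were both controls. Log2 changes were -0.09 (95% interval -0.49 to 0.31) for dnEGFR and -0.07 (-0.47 to 0.33) for ErbB2V664E, with adjusted p of 1 and 0.921 by limma. The difference of the effects was 0.02 (-0.55 to 0.58).

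Id3, which is often induced together with Id1 by BMPs, was higher in dnEGFR mutants. It was at 9.88, 9.88 and 8.65 FPKM in these mutants, against 6.11, 6.62 and 7.08 FPKM in their controls. The groups did not overlap, with means of 9.47 ± 0.715 FPKM in mutants and 6.60 ± 0.487 FPKM in controls (SD, n = 3 each). The log2 change was 0.46 (SE 0.51, 95% interval -0.67 to 1.59), with an adjusted p of 0.994 by limma over all 12 libraries. That estimate of the spread includes ErbB2V664E control 3, in which Id3 was at 0.951 FPKM. In a fit of the 6 dnEGFR libraries alone the SE was 0.09, with an adjusted p of 0.48 by limma (unadjusted 0.00266). Without ErbB2V664E control 3, the adjusted p was 0.943.

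Beside Id3 in dnEGFR mutants, all 10 striatal neuron markers (median 0.56) and all 5 erythroid markers (median 0.46) had positive log2 changes, with 0 called in each list. Striatal markers summed to 175 to 424 FPKM in dnEGFR mutants and 142 to 220 FPKM in controls, and erythroid markers to 116 to 279 FPKM in mutants and 126 to 155 FPKM in controls. Astrocyte markers, of cells that express Id3, summed to 271 to 347 FPKM in mutants and 270 to 287 FPKM in controls, with 4 of 9 positive and 0 called. Endothelial markers summed to 41.5 to 69.1 FPKM in mutants and 43.1 to 59.3 FPKM in controls, with 6 of 10 positive and 0 called. Negative changes were found for 6 of 6 tested mural and fibroblast markers (median -0.07) and 8 of 10 neuron markers (median -0.15), with 0 called. The remaining lists held changes of both signs. The part of these cells in the Id3 values was not tested.

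In the ErbB2V664E line Id3 was at 5.81, 3.18 and 7.41 FPKM in mutants, against 8.81, 7.04 and 0.951 FPKM in controls. The lowest control was more than 3-fold below the lowest mutant, and the other controls overlapped the mutants. The log2 change of 0.21 (adjusted p = 0.914 by limma) turned to -0.52 without ErbB2V664E control 3 (adjusted p = 0.517) and to -0.01 without ErbB2V664E mutant 3.

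Id2, an inhibitor of oligodendrocyte differentiation in cultured precursors, had the highest median of the 10 genes, 49.3 FPKM over 12 libraries, and fell on separate levels. It was at 67.5, 51.7 and 49.2 FPKM in dnEGFR mutants, against 78.1, 4.72 and 3.96 FPKM in their controls. Among ErbB2V664E mice it was at 4.46, 52.9 and 4.14 FPKM in mutants, against 49.3, 49.6 and 49.2 FPKM in controls. Low values thus occurred in 2 controls of the first line and 2 mutants of the second, and no library lay between 4.72 and 49.2 FPKM. The locus held a single transcript of 1270 bases. The low libraries stood for an estimated 94.0 to 124 fragments of Id2 and the high ones for 1206 to 1823.

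On the log2 scale Id2 differed by 2.11 (95% interval -0.31 to 4.53) between dnEGFR mutants and controls and by -2.13 (-4.56 to 0.29) between ErbB2V664E mutants and controls. Adjusted p-values were 0.919 and 0.469 by limma. The difference of the effects was -4.25 (-7.67 to -0.82), with an adjusted p of 0.482 by limma (unadjusted 0.0200). Without single libraries the ErbB2V664E value lay between -3.25 and -1.55 and the dnEGFR value between 1.41 and 3.41. Id2 has 3 transcripts in GENCODE M21, of which 1 was in the table.

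Rassf3, Ythdf1 and Ssh2 were the loci with a single symbol whose log2 values followed Id2 most closely, with Pearson's r of 0.96, 0.86 and 0.85 over the 12 libraries. Genes were picked for these values, so they are a description with no test. Rassf3, of the Ras-association domain family, was at 1.14 to 2.26 FPKM in the same 4 libraries in which Id2 was low, and at 5.21 to 9.65 FPKM in the other 8. In Ythdf1, which encodes a reader of methylated adenosine in RNA, ErbB2V664E mutant 1 was at 10.5 FPKM, inside the range of the high libraries.

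**Figure D3:**
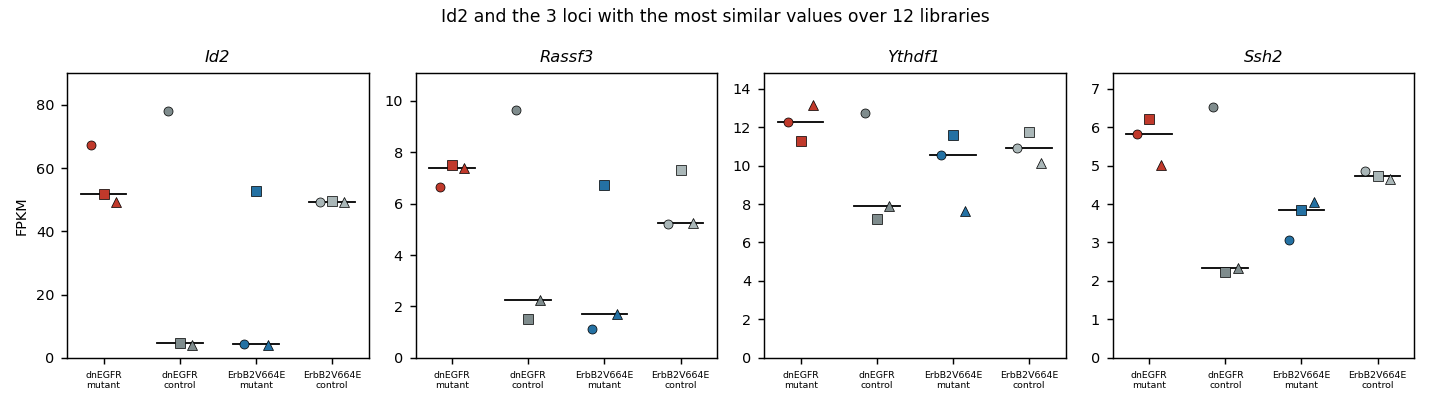
FPKM (y axes, from 0) of Id2 and of the 3 loci with the highest Pearson's r to it, in each library by group (x axis), with symbols for mouse 1 (circle), 2 (square) and 3 (triangle) and bars for group medians. Id2 and Rassf3 were low in dnEGFR controls 2 and 3 and in ErbB2V664E mutants 1 and 3, with a smaller gap for Rassf3.

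Id4, expressed in precursors and astrocytes, was low in all libraries but 1. It was at 2.04, 3.63 and 3.39 FPKM in dnEGFR mutants, against 1.41, 2.68 and 2.51 FPKM in their controls. The groups overlapped, although each mutant was above the control of the same number (log2 change 0.33, 95% interval -1.16 to 1.82, adjusted p = 1 by limma). Among ErbB2V664E mice it was at 3.53, 3.99 and 38.0 FPKM in mutants, against 3.91, 2.93 and 3.93 FPKM in controls. Mutant 3 alone stood apart, with an estimated 3193 fragments of Id4, where the other libraries had 99.9 to 328. The log2 change of 1.07 (adjusted p = 0.568) was 0.06 without that mutant.

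Antisense genes overlap exons of Id4, Bmpr1a and Bmp4 in GENCODE M21, and no strand-keeping step is named in the labels' protocol. Those of them found in the table reached at most 0.24 FPKM (A330033J07Rik, opposite Id4), 0.164 FPKM (Gm17110, opposite Bmpr1a) and 0.105 FPKM (Gm15217, opposite Bmp4). Gm49291, also opposite Id4, was not found in the table. Gm17110 shares 191 stretches of 100 bases with Bmpr1a and Gm49291 shares 11 with Id4, and the part of these genes in the values was not tested.

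Several of the loci most like the other genes shared the same outlying library. These loci were picked by their values in the same libraries, so such sharing follows from the choice and is only described. Uhmk1, a kinase gene with an r of 0.90 to Id3, was at 4.95 FPKM in ErbB2V664E control 3 and at 14.2 to 36.9 FPKM elsewhere. Fam212b, with an r of 0.94 to Id4, was at 13.4 FPKM in ErbB2V664E mutant 3 and at 0.623 to 1.70 FPKM elsewhere. Bmp4 was followed most closely by Irak2 (r = 0.93), a kinase of interleukin-1 signalling, and Id1 by Hspb1 (r = 0.85), a small heat shock protein, over 12 libraries each. The remaining loci of highest r were Adamts2 (0.88) and Shroom1 (0.87) for Bmp4, Tns3 (0.80) and Cd300c2 (0.79) for Id1, Nbr1 (0.92) and Wwtr1 (0.90) for Id3, and Tma16 (0.91) and Hgsnat (0.88) for Id4.

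The share of genes with such gaps can be set beside all loci. Of the 10 genes 5 held values over 3-fold apart within at least 1 group, as did 24.7% of the 13803 loci. By group this held for 12.3% of loci in dnEGFR mutants, 12% in dnEGFR controls, 11.4% in ErbB2V664E mutants and 10.5% in ErbB2V664E controls.

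Smad7, which blocks receptor activation of Smads and is itself a Smad target, had the lowest p of the 10 genes. It was at 5.16, 4.36 and 3.95 FPKM in ErbB2V664E mutants, against 6.14, 6.75 and 6.01 FPKM in their controls. The groups did not overlap, with means of 4.49 ± 0.615 FPKM in mutants and 6.30 ± 0.394 FPKM in controls (SD, n = 3 each). The log2 change was -0.41 (SE 0.11, 95% interval -0.66 to -0.17), with an adjusted p of 0.161 by limma (unadjusted 0.00333, rank 283 of 13803 loci). Leaving out single libraries gave adjusted p of 0.0585 (without ErbB2V664E mutant 1) to 0.403, and the other alternatives 0.161 to 0.356.

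In the dnEGFR line Smad7 was at 3.75, 3.44 and 3.05 FPKM in mutants, against 3.59, 2.98 and 3.71 FPKM in controls. These groups overlapped fully (log2 change 0.00, 95% interval -0.25 to 0.24, adjusted p = 1 by limma). The difference of the effects was -0.41 (-0.75 to -0.07), with an adjusted p of 0.493 by limma (unadjusted 0.0232). Every library of the ErbB2V664E line (3.95 to 6.75 FPKM) lay above every library of the dnEGFR line (2.98 to 3.75), as values did not overlap between the lines at 19.9% of loci. Line, age and length of treatment cannot be told apart in that contrast.

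Marker lists of other cells are set beside Smad7 in the ErbB2V664E line as sign counts and summed levels, without a test of the lists. All 10 microglial markers had negative log2 changes (median -0.54, 0 called), with a summed level of 57.7 to 101 FPKM in mutants and 99.4 to 133 FPKM in controls. Of 10 mature oligodendrocyte markers 9 were negative (median -0.74, 1 called), at 752 to 1200 FPKM in mutants and 1229 to 1780 FPKM in controls. Endothelial markers, of which Cldn5 was listed at 0 in some libraries, had 8 of 10 positive (median 0.10, 1 called higher), at 60.3 to 65.4 FPKM in mutants and 46.7 to 55.7 FPKM in controls. Astrocyte markers were negative for 7 of 9 (median -0.21), at 228 to 271 FPKM in mutants and 296 to 449 FPKM in controls. The lists of neuroblasts (5 of 6 negative, Sox11 listed at 0 in some libraries), ependyma (7 of 8), choroid plexus (7 of 7), striatal neurons (8 of 10) and erythroid cells (5 of 5) were mostly negative too. Those of neurons (3 of 10 negative) and of mural cells and fibroblasts (3 of 6) were mixed. In astrocytes and these 7 lists 0 genes were called. The part of these cells in the Smad7 values was not tested.

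Nog, a secreted antagonist that binds BMP4 and BMP7, was listed at 0 in all 6 libraries of the dnEGFR line, so no fold is given there. In the ErbB2V664E line it was at 2.03, 0 and 2.39 FPKM in mutants, against 1.88, 2.47 and 2.06 FPKM in controls. Every nonzero library stood for an estimated 57.0 to 88.3 fragments of its single transcript of 1695 bases, and values between 0 and 1.88 FPKM did not occur. Such a 0 may also arise where a transcript received no estimate. Nog passed the filter only through this line, and the controls, which had no 0, sufficed for that alone. For that reason no test of it is read. The negative sign of its log2 change turned where 1 library was left out.

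**Figure D4:**
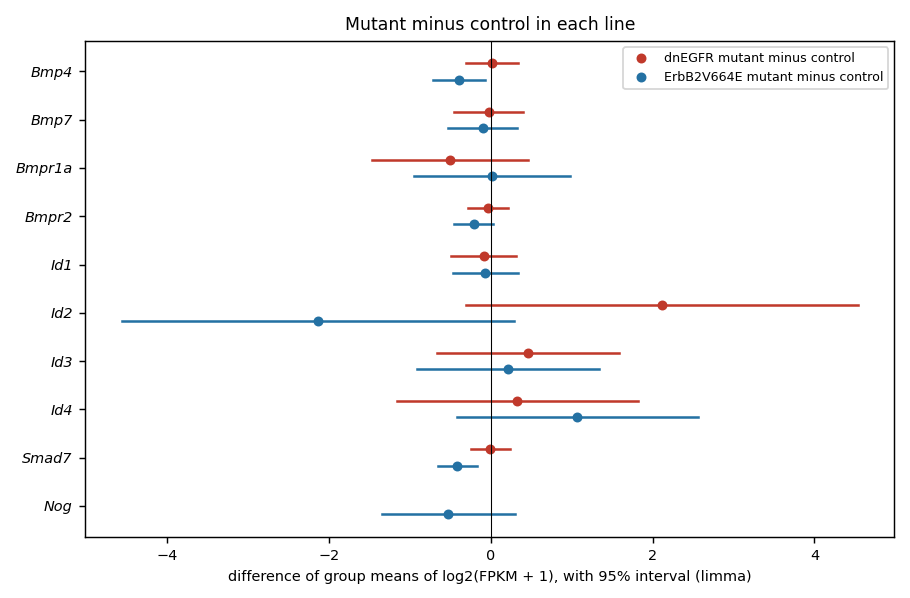
Mutant minus control difference of mean log2(FPKM + 1) (x axis) for each gene (y axis) in the dnEGFR line (red, upper) and the ErbB2V664E line (blue, lower), with 95% intervals from limma. Intervals of Bmp4 (-0.71 to -0.07) and Smad7 (-0.66 to -0.17) in the ErbB2V664E line do not reach 0 before adjustment, those of Id2 span over 4 log2 units, and Nog has no dnEGFR value. The ErbB2V664E value of Nog is not read as a test.

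Around these genes, 75 further ligands, receptors, antagonists, Smads, targets and partners of Id proteins were listed, and 61 of them were tested. By limma 0 were called in either line or in the difference of the effects. Unadjusted p-values under 0.05 were found for 5 of 61 in the dnEGFR line and for 6 of 61 in the ErbB2V664E line, against 5.69% and 12.1% of all loci. The median log2 changes of the 61 genes were 0.03 and 0.02. These counts and medians include Olig1, of which no test is read for the reason given below.

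Smad3, a signal transducer of TGF-beta and activin, had the lowest p among Smads and their modulators in both lines. It was at 9.60, 8.34 and 9.68 FPKM in dnEGFR mutants, against 3.43, 3.96 and 3.26 FPKM in their controls. The groups did not overlap (log2 change 1.17, SE 0.21, adjusted p = 0.146 by limma). In the ErbB2V664E line it was at 9.55, 11.6 and 12.2 FPKM in mutants, against 4.34, 9.59 and 5.33 FPKM in controls. Control 2 slightly exceeded the lowest mutant there (0.76, SE 0.21, adjusted p = 0.188 by limma). The call depended on which libraries entered: for dnEGFR the adjusted p was 0.0318 with the 6 libraries of that line alone, and without ErbB2V664E control 2 it was 0.00549 for dnEGFR and 0.0172 for ErbB2V664E.

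Other Smad modulators were closer to their controls. Smurf1, a ubiquitin ligase for BMP Smads, was at 4.90 ± 0.281 FPKM in dnEGFR mutants and 6.56 ± 0.532 FPKM in controls (SD, n = 3 each; -0.36, adjusted p = 0.557 by limma). Zeb2, a Smad-binding repressor needed for oligodendrocyte differentiation, sat at a locus joined with a microRNA gene. It was at 3.54 ± 0.549 FPKM in ErbB2V664E mutants and 4.90 ± 0.352 FPKM in controls (-0.38, adjusted p = 0.207). Its log2 change for dnEGFR was -0.10. Smurf2, a relative of Smurf1, was at 3.44 ± 0.928 FPKM in ErbB2V664E mutants and 4.95 ± 0.272 FPKM in controls (-0.44, adjusted p = 0.341). None of the 13 tested genes of this list passed, with 8 positive in the dnEGFR line and 7 in the ErbB2V664E line.

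Of 12 tested receptors and co-receptors 0 were called, with 8 positive in the dnEGFR line and 6 in the ErbB2V664E line. Acvrl1, an endothelial type I receptor, was at 3.83 ± 0.696 FPKM in dnEGFR mutants and 2.43 ± 0.539 FPKM in controls (SD, n = 3 each; 0.50, adjusted p = 0.836 by limma). In the second line it was at 2.75 ± 0.0939 FPKM in mutants and 4.39 ± 1.46 FPKM in controls (-0.48, adjusted p = 0.371). Eng, its co-receptor endoglin, was at 5.00 ± 0.229 FPKM in dnEGFR mutants and 3.90 ± 0.345 FPKM in controls (0.29, adjusted p = 0.754). Acvr2a, an activin and BMP type II receptor, was at 3.88, 3.83 and 9.96 FPKM in dnEGFR mutants, against 11.5, 10.1 and 10.2 FPKM in controls (-0.86, adjusted p = 0.865). Mutant 3 lay just below the lowest control and far above the other mutants. For ErbB2V664E, Tgfbr1, the TGF-beta type I receptor, had a log2 change of -0.26 (adjusted p = 0.553) and the co-receptor gene Rgmb of 0.51 (adjusted p = 0.560). Rgmb was at 4.13 FPKM in mutant 3, above 1.18 and 1.74 FPKM in the other mutants, and its change was 0.15 without it. That of Tgfbr1 was -0.12 without control 1.

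Of the 8 tested ligands and the 11 tested antagonists 0 were called in either line. Tgfb2 was at 0.49 ± 0.0957 FPKM in dnEGFR mutants and 1.07 ± 0.496 FPKM in controls (SD, n = 3 each; -0.44, adjusted p = 0.927 by limma). Gdf11 was at 3.99, 3.82 and 2.43 FPKM in ErbB2V664E mutants, against 3.50, 0.553 and 0.451 FPKM in controls, so that 1 control lay among the mutants (1.01, adjusted p = 0.475). Its log2 change for dnEGFR was 0.73 (adjusted p = 0.985), and 0.19 without dnEGFR mutant 2. Chrd, the BMP antagonist chordin, was at 4.07 ± 0.589 FPKM in ErbB2V664E mutants and 2.88 ± 0.977 FPKM in controls (0.41, adjusted p = 0.437). Inhbb, an activin subunit, had log2 changes of -0.24 for dnEGFR and 0.41 for ErbB2V664E, and Tgfb2 of -0.40 for ErbB2V664E. Those of Inhbb were -0.07 without dnEGFR mutant 1 and 0.11 without ErbB2V664E control 2. Twsg1, a chordin cofactor, was at 6.51, 7.17 and 8.12 FPKM in dnEGFR mutants, against 0.731, 7.60 and 7.15 FPKM in controls, where control 1 alone was low. Its log2 change of 0.73 (adjusted p = 0.966) was -0.02 without that control. The antagonist genes Fst (0.32 for dnEGFR, adjusted p = 0.981) and Chrdl1 (-0.27 for ErbB2V664E, adjusted p = 0.627) did not pass the threshold.

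The basic helix-loop-helix genes that Id proteins act on held 12 tested members, Olig1 among them, and 0 calls. That count is not read as a result for Olig1. Olig1, a factor of the oligodendrocyte lineage, was at 59.0, 55.1 and 48.0 FPKM in ErbB2V664E mutants and listed at 0 in their 3 controls. In the dnEGFR line it was listed at 0 in 3 mutants and at 35.4, 0 and 0 FPKM in controls, so no fold is given. Olig1 passed the filter only through the libraries in which it was high, so no test of it is read. As for Nog, a 0 may also arise where a transcript received no estimate. Olig2, which specifies the lineage, was at 5.93, 2.08 and 2.11 FPKM in dnEGFR mutants, against 1.69, 0.464 and 0.9 FPKM in controls (1.05, adjusted p = 0.956, and 0.66 without mutant 1). The E protein genes Tcf4 (-0.16 in the dnEGFR line, adjusted p = 0.948) and Tcf12 (-0.15 in the ErbB2V664E line, adjusted p = 0.732) encode partners of Id proteins. Neurod2, a neuronal factor, was at 12.5, 15.1 and 12.2 FPKM in ErbB2V664E mutants, against 2.16, 12.2 and 11.9 FPKM in controls (0.80, adjusted p = 0.582). Without control 1 the change was 0.12.

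Further BMP target genes gave 6 tested genes and 0 calls in either line. Hey1, a Notch and BMP target, was at 8.96, 8.81 and 10.5 FPKM in dnEGFR mutants, against 9.78, 8.79 and 3.36 FPKM in controls, where control 3 alone was low (0.43, adjusted p = 0.964 by limma). Without that control the change was 0.02. Msx1, a homeobox gene, was at 1.48, 0.24 and 0.433 FPKM in ErbB2V664E mutants, against 1.31, 1.87 and 0.98 FPKM in controls (-0.52, adjusted p = 0.456), and its log2 change for dnEGFR was -0.10. Dlx2, another homeobox gene, had a log2 change of 0.10 for dnEGFR. Ecm1 sat at a locus joined with Tars2, Rprd2 and a microRNA gene, and that locus had 0.19 for ErbB2V664E. Junb, an immediate early gene, was at 19.4, 0 and 26.8 FPKM in ErbB2V664E mutants, against 15.5, 0 and 0 FPKM in controls, so no fold is given.

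**Figure D5:**
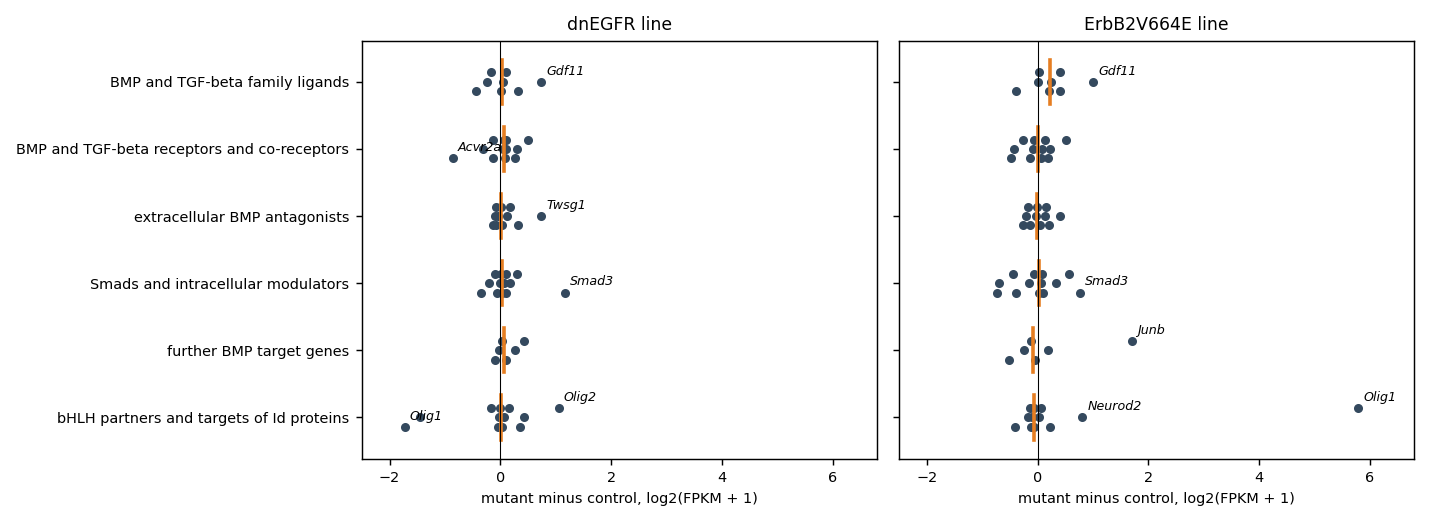
Mutant minus control difference of mean log2(FPKM + 1) (x axis) for each tested gene of the 6 pathway lists (y axis) in the dnEGFR line (left) and the ErbB2V664E line (right); points are genes and orange bars list medians. Most genes lie near 0, with Smad3 at 1.17 in the dnEGFR line and 0.76 in the ErbB2V664E line. Olig1, listed at 0 in its ErbB2V664E controls, lies far to the right there, and its position is not read as a fold. Some libraries were also listed at 0 for Olig1 in the dnEGFR line and for Junb in the ErbB2V664E line. Those points are not read as folds either.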

How the data were processed

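The deposited table gave 1 FPKM value per locus and library; the authors obtained these FPKM values with StringTie, per the design text, and the submitters' processing notes also list HISAT. No version, genome build or annotation is stated. GENCODE M21 held 99.5% of the 91226 Ensembl transcripts of the table, and it served here for transcript lengths and sequences. Where several loci carry a symbol, that of the highest mean over the libraries was used. Loci with at least 1 FPKM in at least 3 libraries were fitted with limma 3.58.1 (R 4.3.3) after adding a pseudocount of 1 and taking log2: 1 mean per group over 12 libraries, a variance trend, two-sided tests, 8 residual and 2.03 prior degrees of freedom. Benjamini-Hochberg adjustment ran over all tested loci, with a threshold of 0.05, and the script was tested on simulated data.

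Fragment numbers were estimated from the value steps of 14221 loci with 1 transcript; between 40.8% and 44.9% of the lowest values lay within 0.01 of a step of 0.5 fragments, and 1 FPKM in a transcript of 2 kb stood for 33.2 to 49.5 fragments. Such estimates cover counting error only. Each control is described as the littermate of a mutant, and libraries of the same number in a line were taken as the 6 litter pairs. Deviations from group means correlated at -0.03 to 0.03 within pairs. P-values measure the spread between these mice.

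The 10 genes and the lists (6 of pathway genes, 13 of cell type markers) were chosen with earlier results of these data known. Summed levels of a marker list include its genes that were not tested. The text names the 10 genes, the 3 tested genes of lowest p in each pathway list and line (1 of these genes is not reported here), and the 3 loci of a single symbol with the highest Pearson correlation to Bmp4, Id1, Id2, Id3 and Id4. Tables and figures were made in Python 3.11.15 (pandas 2.3.3; numpy 2.4.6; matplotlib 3.10.9). Alternatives were a pseudocount of 0.1, no filter, upper-quartile or quantile scaling, no variance trend, a fit per line, a litter block, summed loci and leaving out each library.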

Additional observations from a re-analysis of the deposited data

How the results depend on the processing

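The count of BMP and Id genes called stayed at 0 under all alternatives run. With litter as a replicate block 3, 7 and 4 loci were called in the dnEGFR, ErbB2V664E and difference comparisons, against 13, 38 and 16 without pairing. With only the line compared the counts were 22 and 23. Leaving out 1 library gave 9 to 36 loci for dnEGFR (22 to 36 without dnEGFR mutant 1 or 3 or any dnEGFR control). It gave 16 to 262 for ErbB2V664E, with 262 without ErbB2V664E mutant 1, 16 without mutant 2, 24 and 23 without controls 1 and 3, and 21 without dnEGFR control 3. The difference gave 15 to 42, with 42 without ErbB2V664E mutant 1 and 27 to 28 without dnEGFR mutant 3, control 1 or control 3. The cause was not tested.

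Among the 64 gene comparisons recomputed, 48 kept their sign throughout, and signs turned only where 1 library was left out. For dnEGFR the log2 ranges were -0.105 to 0.0993 (Bmp4), -0.0899 to 0.0640 (Bmp7), -0.0894 to 0.0348 (Bmpr2), -0.231 to 0.0071 (Id1), -0.0791 to 0.0566 (Smad7), -0.0232 to 1.13 (Twsg1) and -0.0023 to 0.250 (Dlx2). For ErbB2V664E they were -0.338 to 0.0849 (Bmp7), -0.0396 to 0.0654 (Bmpr1a), -0.269 to 0.107 (Id1), -0.516 to 0.649 (Id3) and -0.846 to 0.0342 (Nog). For the difference they were -0.310 to 0.113 (Bmp7), -0.182 to 0.194 (Id1), -0.977 to 0.188 (Id3) and -0.270 to 1.28 (Id4). Leaving aside Olig1, listed at 0 in whole groups, only Smad3 crossed the threshold under some alternatives. Its adjusted p by limma ranged from 0.00549 to 0.339 for dnEGFR and from 0.0172 to 0.454 for ErbB2V664E. Without 1 library, many of the small changes of single genes moved by over 1.5 times, and none of these was called. With 3 mice per group, the intervals of genes whose values jump within a group, such as Id2 and Id4, span several log2 units.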

Other observations

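Rgma, a BMP co-receptor, separated the lines rather than mutants from controls. It was at 9.61 to 12.7 FPKM in the 6 libraries of the ErbB2V664E line and at 0.943 to 1.42 FPKM in the 6 of the dnEGFR line. Acvr1b, an activin type I receptor, was at 13.6 to 20.9 FPKM in the ErbB2V664E line and at 4.91 to 11.6 FPKM in the dnEGFR line. Both genes were picked after their values were seen, values of 19.9% of all loci did not overlap between the lines, and line, age and length of treatment cannot be told apart.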
